A study of Capra hircus with 12 samples.

Results

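The miR-130, miR-301 and miR-454 family was followed through the cashmere cycle in secondary hair follicles (SHFs), the small follicles of goat skin that grow the fine cashmere fibre. Members were taken by name, as every listed miR-130a, miR-130b, miR-301a, miR-301b and miR-454 with either arm, which gave 8 of the 376 miRNAs in the small RNA tables. SHFs had been dissected from scapular skin of untreated Liaoning cashmere goats aged 1.5 years, and 12 libraries were sequenced, 1 female and 1 male library in each of 6 months. February and March were telogen, the resting phase (n = 4), May and September were the early and middle parts of anagen, the growing phase (n = 2 each), and November and December were catagen, the regressing phase (n = 4). The methods of the study describe several goats of each sex at a time point without naming which of them entered a library, so n counts libraries and the p-values measure the spread between them. Each group of 2 holds 1 library of each sex, and no library was taken between March and May.

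A miRNA is cut from a hairpin precursor whose 2 arms, named 5p and 3p, can each be loaded into an Argonaute protein and guide it to messenger RNAs. Targets are chosen mainly by the seed, a short stretch near the 5′ end of the miRNA. The 3p arms of miR-130a, miR-130b, miR-301a, miR-301b and miR-454 are known to carry the same seed and so share predicted targets, whereas the 5p arms carry other seeds. In other tissues the family is known for repressing receptors and SMAD proteins of the TGF-beta and BMP pathways and the lipid regulator PPARG, and TGF-beta and BMP signaling also act in hair follicle cycling. In the RefSeq gene table of the ARS1.2 goat assembly, MIR301A and MIR454 both lie within the span of SKA2, a gene for a spindle and kinetochore protein, and MIR130A lies within no other listed gene.

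The libraries held 3135292 to 5788032 miRNA counts. The deposited TPM values were each miRNA's count divided by the total of the library and rescaled alike in all libraries, with no term for length, so 3 counts corresponded to a TPM of 0.518 to 0.957. TMM, the scaling of edgeR that sets most miRNAs to no change, multiplied library totals by 1.25 and 1.29 in May and by 0.848 and 0.912 in September. As a result the median log2 change of the 300 miRNAs tested from May to September was 0.07 after TMM scaling and -0.46 with library totals, and the choice of scale matters for every level below. The miRNAs usually taken as dermal (miR-199, miR-214, miR-143, miR-145) summed to a TPM of 118318 to 148888 over the 12 libraries. Those taken as epithelial (miR-203 and the miR-200 family) summed to 56735 to 96687, and the endothelial miR-126 arms to 8819 to 12699. Such lists mark cell types only roughly, since the study located miR-143-3p in the hair matrix of SHFs. Each library was read as a mixture of cell types in unknown shares. In such bulk samples fewer cells of a type and less miRNA per cell cannot be told apart.

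miR-130a-3p was by far the most abundant member, with a mean TPM of 119.7 over the 12 libraries and rank 116 among the 376 miRNAs. It was followed by miR-130b-5p (mean TPM 34.1, rank 162) and miR-454-3p (mean TPM 29.996, rank 169), whose ranges over the libraries overlapped widely. miR-130b-3p (mean TPM 18.05, rank 195) and miR-130a-5p (mean TPM 13.8) came next and also overlapped. miR-301a-3p (mean TPM 4.22, rank 282), miR-301b (mean TPM 1.73, rank 332) and miR-301a-5p (mean TPM 1.011, rank 356) were rare. The family as a whole was therefore of moderate to low abundance in these follicles, and most of it was miR-130a-3p.

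**Figure D1:**
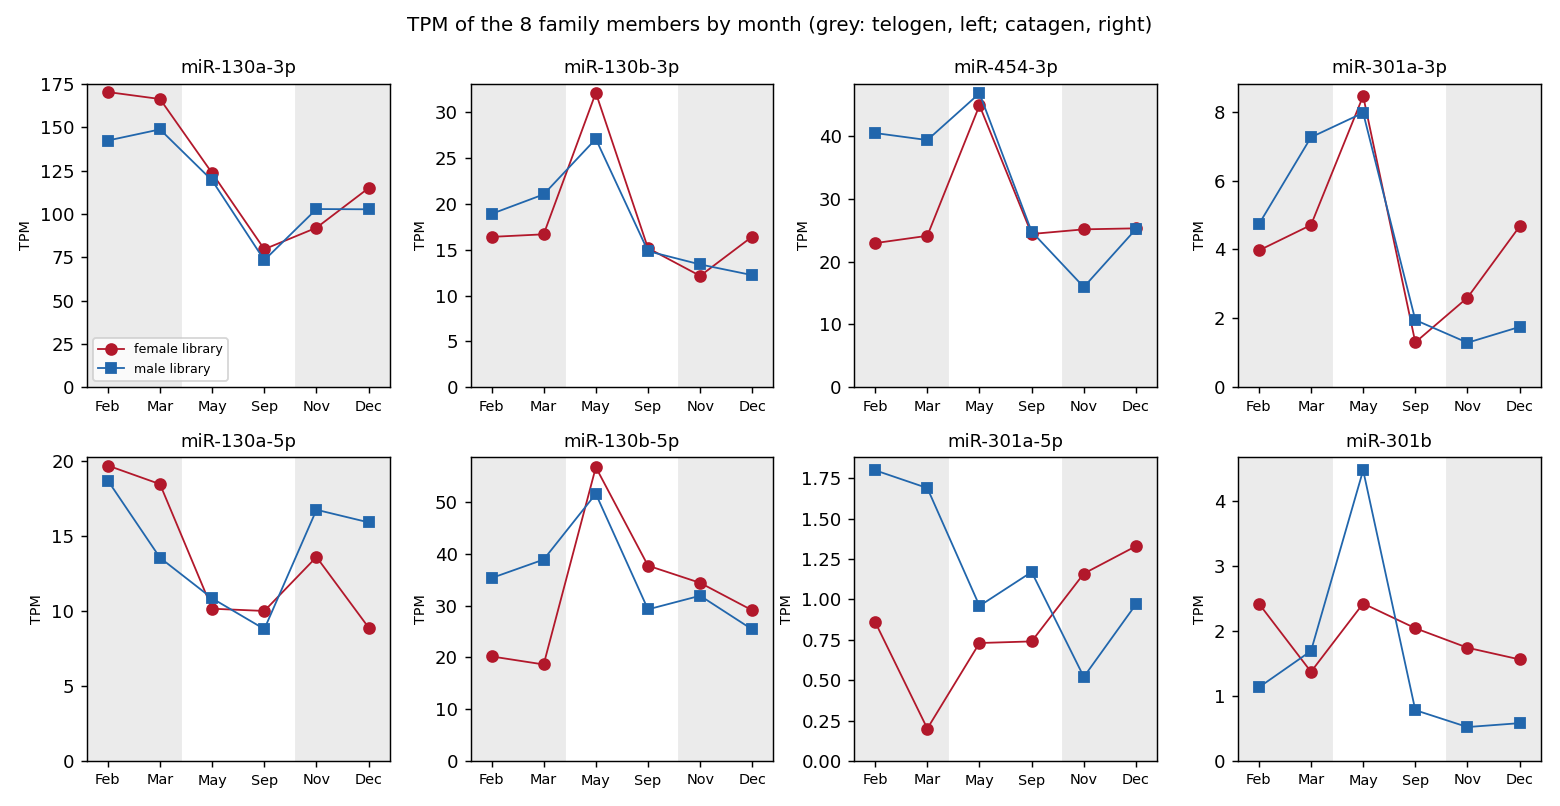
TPM (y axis, from 0, a scale of its own in each panel) of the 8 members in the female (circles) and male (squares) library of each of 6 months (x axis), with telogen and catagen months shaded grey. miR-130b-3p, miR-130b-5p, miR-454-3p and miR-301a-3p have their highest values in May, whereas miR-130a-3p is highest in February and March and lowest in September, at 73.3 to 79.6.

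Summed over the members with the shared seed, the family was at a TPM of 214 ± 4.57 (SD, n = 4) in telogen, 209 ± 4.11 (n = 2) in May, 119 ± 4.85 (n = 2) in September and 143 ± 13.7 (n = 4) in catagen. All telogen and May libraries (206 to 218) lay above all September and catagen libraries (116 to 163). On the TMM scale the means were 195, 165, 136 and 166 CPM in the same order of groups. September was again the lowest and telogen the highest, but May and catagen were level, and the lowest telogen library (177) was just below the highest catagen library (178). Leaving out miR-301b, which is listed with no arm, lowered a library's total by at most 4.47 TPM. These sums are a description and were given no test.

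miR-130a-3p had TPM values of 170.4, 142, 166 and 149 in the telogen libraries (female and male February, female and male March). It was at 124 and 119 in May (female, male), 79.6 and 73.3 in September, and 92.0, 103, 115 and 103 in catagen (female and male November, female and male December). The 4 telogen libraries were above all others on this scale and the September libraries below all others. Neither held after TMM scaling. The male telogen libraries (124 and 121 CPM) were then below the female December library (125 CPM). The female September library (93.9 CPM) was above the male May library (92.7 CPM). On the TMM scale miR-130a-3p fell by 0.72 on the log2 scale (SE 0.18) from telogen to September (edgeR adjusted p = 0.0124), a change under 2-fold, and without the female or the male September library the adjusted p from edgeR was 0.0656 and 0.0939. From telogen to May the difference was -0.58 (SE 0.17, edgeR adjusted p = 0.0610), and from catagen to telogen it was 0.26 (SE 0.14, edgeR adjusted p = 0.156). The comparisons share the telogen libraries. From May to September the TPM means were 121 and 76.5 but the TMM-scaled difference was only -0.14 (SE 0.20, edgeR adjusted p = 0.618).

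miR-130a-5p, the other arm of the same precursor, is usually the arm that is degraded. Its TPM was 19.7, 18.7, 18.5 and 13.55 in telogen, 10.15 and 10.8 in May, 10 and 8.79 in September, and 13.6, 16.75, 8.89 and 15.9 in catagen. The May libraries lay below the telogen libraries, with a difference from telogen to May of -0.97 (SE 0.32, edgeR adjusted p = 0.0809) that was called without the male March library (-1.11, edgeR adjusted p = 0.0179), while catagen was spread from the September level to near the telogen level. From May to catagen it rose by 0.96 (SE 0.32) on the log2 scale after TMM scaling (edgeR adjusted p = 0.0321), just under 2-fold, and with library totals the difference was 0.39 (SE 0.28). Without the female December library, its lowest of catagen, the rise was 1.14 (edgeR adjusted p = 0.00686), and without the female May library it was 0.73 (edgeR adjusted p = 0.264). The adjusted p was also over 0.05 without the male May, either November, the male December or the female March library (edgeR adjusted p from 0.0577 to 0.137).

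miR-130b-3p had a different course. It was at a TPM of 16.4, 18.9, 16.7 and 21.05 in telogen, 32.15 and 27.1 in May, 15.2 and 14.85 in September, and 12.15, 13.4, 16.45 and 12.2 in catagen. Both May libraries were above every other library, and September and catagen overlapped. It fell by 0.58 (SE 0.18) on the log2 scale from May to catagen after TMM scaling (edgeR adjusted p = 0.0254), under 2-fold. Without either May library, the female November or the male December library the adjusted p from edgeR was between 0.0565 and 0.0825, with differences from -0.71 to -0.53. From telogen to May the difference was 0.51 (SE 0.18, edgeR adjusted p = 0.0959).

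miR-130b-5p was at a TPM of 20.2, 35.4, 18.65 and 38.95 in telogen, 56.8 and 51.7 in May, 37.8 and 29.3 in September, and 34.4, 31.95, 29.1 and 25.4 in catagen. Again the May libraries were the highest on the TPM scale, and after TMM scaling the female September (44.5 CPM) and female November (42.4 CPM) libraries lay between the May libraries (45.5 and 40.2 CPM). None of the 6 comparisons passed the test for this arm. The differences ran from -0.49 (SE 0.22, catagen to telogen) to 0.77 (SE 0.26, telogen to May), with edgeR adjusted p = 0.0981 and 0.0835.

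miR-454-3p was at a TPM of 22.98, 40.55, 24.15 and 39.4 in telogen, 44.97 and 46.9 in May, 24.4 and 24.8 in September, and 25.2, 16.0, 25.3 and 25.2 in catagen. In TPM the May libraries were again the highest, the male telogen libraries came next, and the female telogen libraries were at the level of September. After TMM scaling the May libraries (36.0 and 36.4 CPM) and then the male telogen libraries (35.4 and 32.0 CPM) stayed highest. The female telogen libraries (22.9 and 23.2 CPM) were then below September (28.8 and 27.2 CPM). No comparison passed the test, and the differences lay between -0.44 (SE 0.24, May to catagen) and 0.35 (SE 0.24, telogen to May).

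miR-301a-3p lies in the same host gene as miR-454. After TMM scaling it had the largest fold change of the tested members in every comparison of groups except telogen to May. It had 23, 21, 24 and 30 counts in the telogen libraries, 35 and 25 in May, 7 and 10 in September, and 9, 5, 21 and 9 in catagen, or a TPM of 5.17 ± 1.44, 8.22 ± 0.346, 1.63 ± 0.460 and 2.58 ± 1.50. Both May libraries were above all others, with the male March library next at a TPM of 7.26, the September libraries were below all telogen libraries, and the female December library stood with telogen at a TPM of 4.67. After TMM scaling it fell from May to September, with a log2 change of -1.81 (SE 0.49, edgeR adjusted p = 0.0143). It also fell from May to catagen (-1.12, SE 0.40, edgeR adjusted p = 0.0410) and from telogen to September (-1.32, SE 0.45, edgeR adjusted p = 0.0479), comparisons that share the May and the September libraries with the first. It passed the filter on low counts through the male March and the 2 May libraries alone, which are among its highest, so its presence among the tested miRNAs was itself tied to its level there, and with more than 10 CPM required in at least 4 libraries it was not tested. The fall from May to September lost its call without the male May library (-1.87, edgeR adjusted p = 0.0520) or the female September library (-1.59, edgeR adjusted p = 0.103). The call from May to catagen held only without the female December (-1.55, edgeR adjusted p = 0.00619), female February, female March or male March library, and without each of the others the change was -1.27 to -0.91 with edgeR adjusted p from 0.0503 to 0.130. The call from telogen to September held only without the male November, female December or female March library, and without each of the others the change was -1.58 to -1.10 with edgeR adjusted p from 0.0510 to 0.270. With all libraries the difference from catagen to telogen was 0.63 (SE 0.34, edgeR adjusted p = 0.164). Without the female December library, its highest of catagen, the difference became 1.06 (edgeR adjusted p = 0.0256). The share of all tested miRNAs called in that smaller fit is not given here. Red blood cell miRNAs (miR-451-5p and miR-144-5p) summed to a TPM of 27.9 to 115 in telogen and 5.41 to 26.4 in catagen, with 1 of the 2 called higher in telogen. Muscle miRNAs summed to 2113 to 2745 in May and 3389 to 3461 in September, although the median log2 change of the 5 tested was -0.19 with 1 called higher. Leukocyte miRNAs summed to 416 to 434 in May and 415 to 588 in September, and the 4 tested had a median change of 0.94 with 1 called higher. After TMM scaling the leukocyte sums were 333 to 337 and 490 to 645 CPM. The endothelial (7133 to 7757 and 10773 to 11204) and dermal (109055 to 109271 and 154416 to 166616) sums were also higher in September on that scale. Their tested miRNAs had median changes of -0.02 and -0.32. The epithelial, red blood cell and melanocyte (miR-211) sums of May and September overlapped on it. The part of these cell types in the differences was not tested.

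miR-301a-5p, with 1 to 8 counts, and miR-301b, with 2 to 14 counts, did not reach the filter. miR-301b was highest in the male library of May (TPM 4.47), and the female libraries of May and February were level at 2.42. With no filter on low counts both entered the fit, and neither passed in any of the 6 comparisons (edgeR adjusted p from 0.127 to 0.989). miR-301a and miR-301b, and miR-130a and miR-130b, are close in sequence, so reads could be divided between them by the authors' assignment in a way the tables do not show.

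Across the family, miR-301a-3p was the only member called, a call being an adjusted p under 0.05 and at least a 2-fold change, in any comparison of the 4 groups. That is 1 of 6 tested members from May to September, where 18.3% of all 300 tested miRNAs were called, 1 from May to catagen against 16.7%, and 1 from telogen to September against 9.33%. No member was called from catagen to telogen (10.7% of all tested), from telogen to May (2.33%) or from September to catagen, where edgeR called none of the 300 at all and 7.67% had an unadjusted p under 0.05. Among the latter the only member was miR-130a-3p (0.46, SE 0.17, edgeR unadjusted p = 0.0215, edgeR adjusted p = 0.535). With 6 members a single call lies near each of these backgrounds. The member called passed the filter through the male March and the May libraries alone, so its being tested was tied to its level there. Disregarding fold size, 2 members had an adjusted p under 0.05 from telogen to September (25.3% of all tested), 3 from May to catagen (37%) 1 from May to September (34%), and 0 from catagen to telogen (35%), telogen to May (5.33%) and September to catagen (0%).

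The libraries of telogen and May did not overlap in all 6 tested members, in TPM and after TMM scaling alike, with miR-130b-3p, miR-130b-5p, miR-454-3p and miR-301a-3p higher in May and both arms of miR-130a lower. Of all tested miRNAs, 37.7% did not overlap in TPM and 38.3% after TMM scaling, and no member passed the test for that step. Among these members, miR-301a-3p passed the filter only through the male March and the May libraries. Its place in this count was therefore tied to its level in May. The members are also not independent of each other, as miR-130a and miR-130b each entered with both arms. May and September did not overlap for 6 members in TPM (77% of all tested) and for 4 after TMM scaling (75%). For May and catagen it was 5 (65.7%) and 5 (61%), for telogen and September 4 (49.7%) and 3 (46.3%), for catagen and telogen 1 (28.7%) and 0 (30%), and for September and catagen 1 (19%) and 1 (21%).

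**Figure D2:**
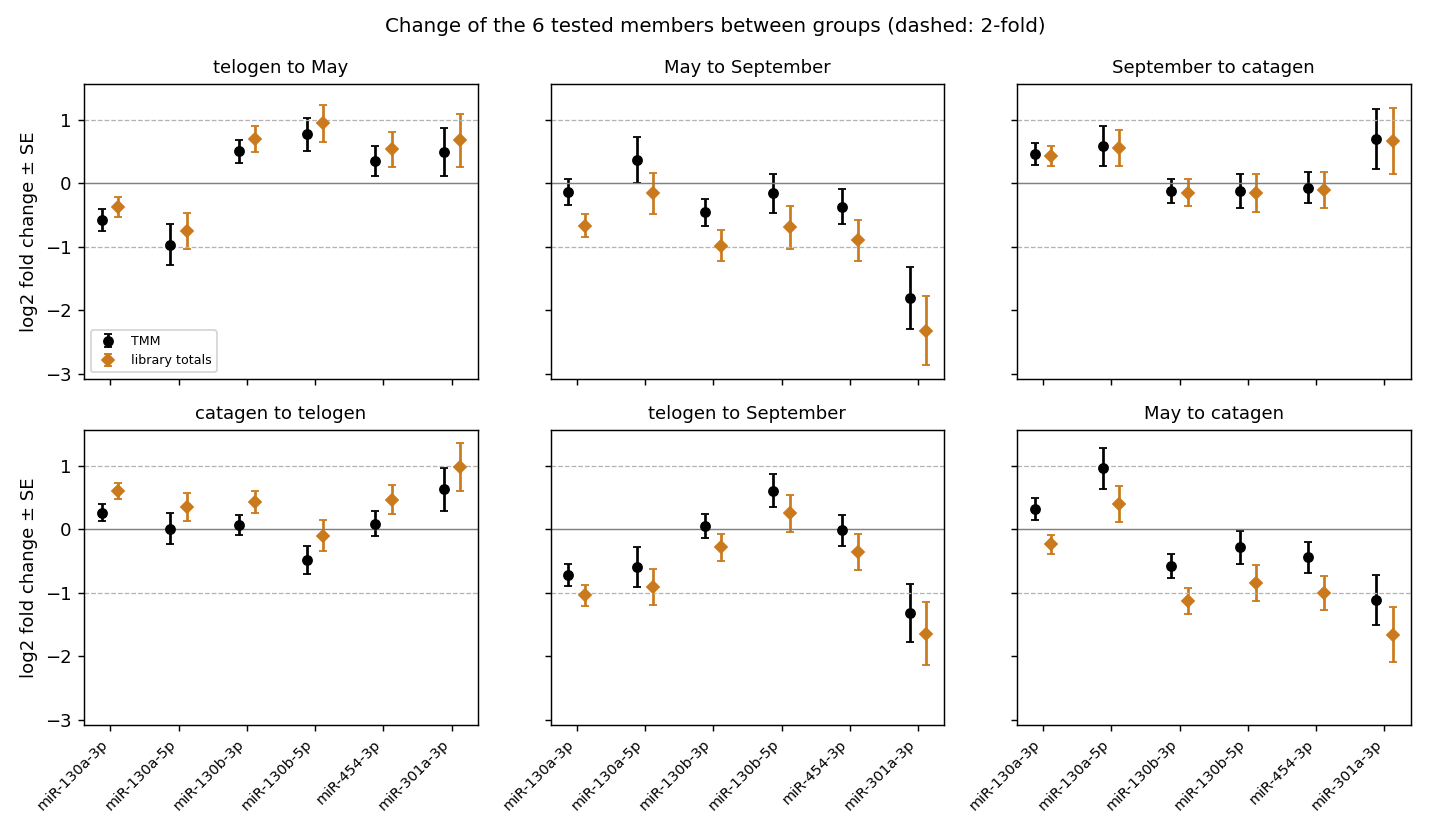
Log2 fold change with its SE (y axis) of the 6 tested members (x axis) in the 6 comparisons of groups, second group against first, after TMM scaling (black circles) and with library totals (orange diamonds); dashed lines mark 2-fold. miR-301a-3p changes by -1.81 from May to September, while the other 5 members lie between -0.46 and 0.37 after TMM scaling.

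In a fit by month, the step from May to September rests on the same 4 libraries as before and adds no further evidence. miR-301a-3p was the only member called in it (-1.81, SE 0.50, edgeR adjusted p = 0.0197), beside 17.3% of all tested miRNAs. Its place among the tested miRNAs came through the male March and the May libraries alone, and so was tied to its level in May. No member was called between any other neighbouring months, where 1.33% of all tested miRNAs were called from December to February and 0% in each other step. From March to May the differences were -0.55 (SE 0.22) for miR-130a-3p and 0.79 (SE 0.32) for miR-130b-5p, with edgeR adjusted p = 0.253 for each, and 0% of all tested miRNAs were called in that step by edgeR, 17.3% having an unadjusted p under 0.05. In that step miR-130a-3p, miR-130a-5p and miR-130b-5p had edgeR unadjusted p of 0.0293, 0.0496 and 0.0304, and the other tested members were above 0.05. With 2 libraries a month, none of these differences passed after adjustment.

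The make-up of the shared-seed total did not depend on how libraries were scaled, since all members of a library share 1 total. miR-130a-3p made up 73.4% ± 5.81 (SD, n = 4) of its counts in telogen, 58.2% ± 0.294 (n = 2) in May, 64.1% ± 1.14 (n = 2) in September and 72.0% ± 3.39 (n = 4) in catagen. The 2 May libraries, with 58.4% (95% Wilson interval 55.1% to 61.6%) and 58.0% (54.1% to 61.7%), were below all others, and the September libraries, 65.0% (61.2% to 68.5%) and 63.3% (59.4% to 67.1%), were below all telogen and catagen libraries, of which the lowest was 68.2%. The intervals of the September libraries overlapped with those of May and of the lowest telogen libraries, and intervals cover counting error only. miR-454-3p took 22.0% ± 1.08 in May against 14.9% ± 4.56 in telogen, and miR-130b-3p took 14.2% ± 1.43 against 8.54% ± 0.992.

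**Figure D3:**
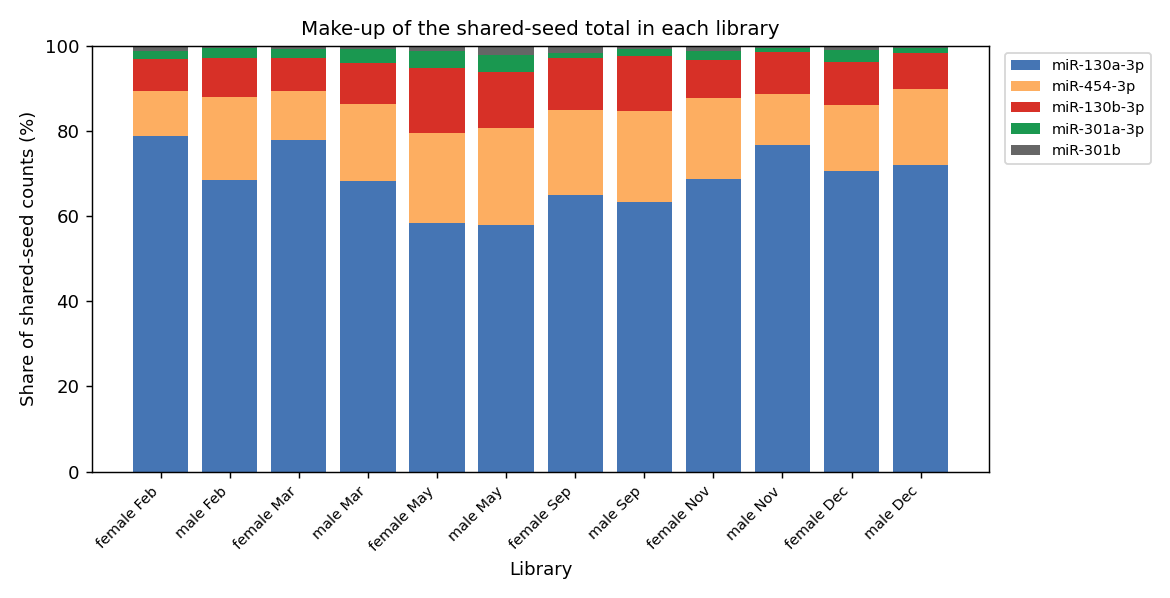
Share of each member (colours) in the counts of the shared-seed total (y axis, in percent, from 0) for the 12 libraries (x axis) in order of month. miR-130a-3p is the largest part everywhere and is smallest in the May libraries, at 58.0% and 58.4%.

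Set against miR-130a-3p, which shares its seed, miR-130b-3p had 0.0963, 0.133, 0.100 and 0.141 counts per count in telogen, 0.260 and 0.227 in May, 0.191 and 0.203 in September, and 0.132, 0.130, 0.143 and 0.119 in catagen. May was above September, and September above every telogen and catagen library, whose ranges overlapped. The ratio of miR-454-3p to miR-130a-3p followed the same order of means, -2.34 ± 0.563, -1.40 ± 0.0791, -1.63 ± 0.100 and -2.18 ± 0.350 on the log2 scale in telogen, May, September and catagen, and the May libraries were above all others. No difference was detected for telogen against catagen in the 4 ratios tested, as the exact two-sided permutation p-values (4 against 4 libraries, smallest possible 0.0286) were 0.286, 0.343, 0.714 and 0.971 for miR-130b-3p, miR-301a-3p, miR-454-3p and miR-301b against miR-130a-3p, or 0.686, 0.686, 0.952 and 0.971 after adjustment over the 4. The differences of the log2 ratio (telogen minus catagen) were -0.18, 0.43, -0.16 and -0.03. The design has too few May and September libraries for an exact test of those steps.

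**Figure D4:**
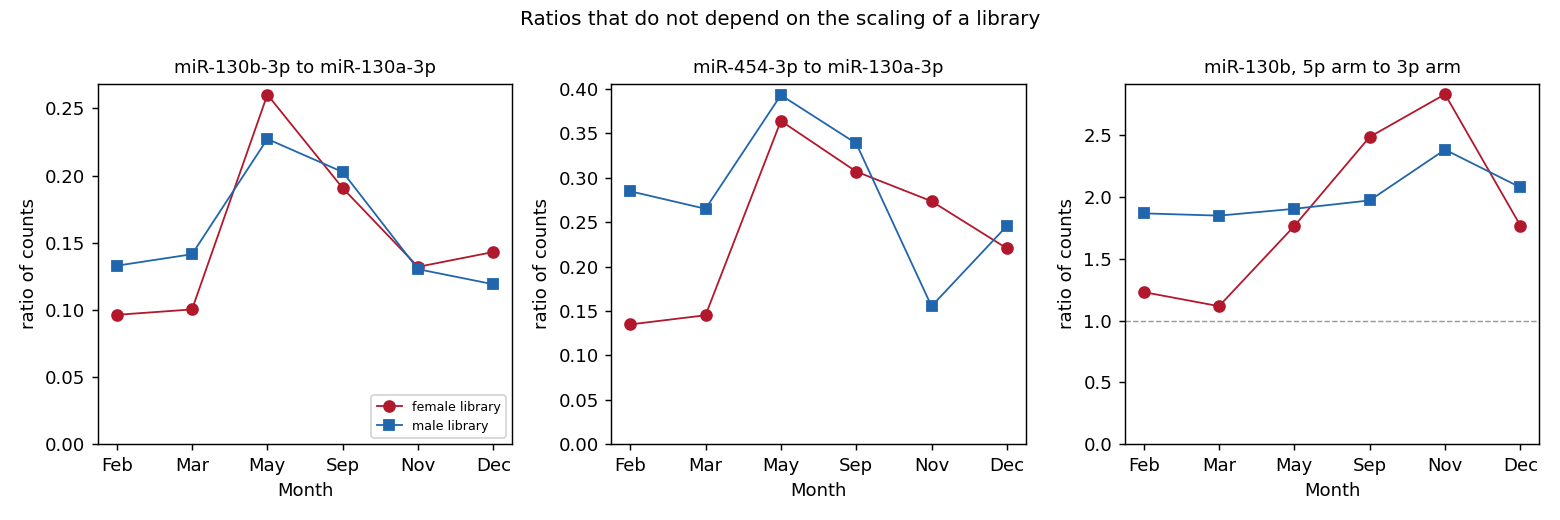
Ratio of counts (y axis, from 0) of miR-130b-3p to miR-130a-3p (left), miR-454-3p to miR-130a-3p (middle) and the 5p to the 3p arm of miR-130b (right, dashed line at equality) in the female (circles) and male (squares) library of each month. The 2 left ratios are highest in May, and the miR-130b 5p arm exceeds the 3p arm in all 12 libraries.

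The arms of the 2 miR-130 precursors were used in opposite proportion. miR-130a had more 3p than 5p in every library (log2 ratio 2.60 to 3.66), whereas miR-130b had more 5p than 3p in all 12 libraries, as did 42 of the 82 precursors with both arms tested. The miR-130b 3p to 5p log2 ratio was -0.56 ± 0.385 (SD, n = 4) in telogen, -0.87 ± 0.0749 (n = 2) in May, -1.14 ± 0.235 (n = 2) in September and -1.14 ± 0.283 (n = 4) in catagen. From catagen to telogen it rose by 0.59 (SE 0.23, limma adjusted p = 0.0435), while 48.8% of the 82 precursors had an adjusted p under 0.05 in that comparison. The other comparisons called no family precursor, while 40.2% of all were called from May to September, 43.9% from May to catagen, 39% from telogen to September, 9.76% from telogen to May and 0% from September to catagen. Telogen was split, with the female libraries nearest to equal arms and the male libraries at the level of May, and with sex as a replicate block the limma adjusted p was 0.0514. The call also was lost without either May library (limma adjusted p = 0.0546), the female or male November, male December, female February or female March library, with rises of 0.45 to 0.62 and limma adjusted p up to 0.142. Without the female December library the miR-130a ratio passed the test from May to catagen (-0.83, limma adjusted p = 0.00856). miR-130a arm ratios did not pass the test in any of the 6 comparisons (limma adjusted p from 0.121 to 0.983), with differences from -0.58 to 0.35.

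Sex was compared with month as a term. No member was called and edgeR called 0% of the 300 miRNAs, 34 of them (11.3%) having an unadjusted p under 0.05. The differences (male minus female) ran from -0.19 to 0.08 on the log2 scale. Within telogen, both male libraries were above both female libraries in TPM for miR-454-3p, miR-130b-5p, miR-130b-3p and miR-301a-3p, and below them for miR-130a-3p, where 47.3% of all tested miRNAs had the males higher and 13.3% lower. After TMM scaling this held for the same members except miR-301a-3p, and miR-130a-5p joined miR-130a-3p as lower in males (32.7% of all tested higher and 28.3% lower). In catagen miR-130a-5p was above in both male libraries on both scales and miR-301a-3p below, as were the rare miR-301a-5p and miR-301b. That order was opposite to telogen for miR-130a-5p after TMM scaling and for miR-301a-3p in TPM. On the other scale the female and male telogen libraries of each overlapped. In that phase 15.3% of all tested miRNAs were higher and 19.3% lower in males in TPM, and 15.3% and 20% after TMM scaling. In those male libraries (February, March) the summed TPM of the red blood cell miRNAs miR-451-5p and miR-144-5p was 52.3 and 115 against 28.2 and 27.9 in the females, and that of the epithelial list was 79465 and 96687 against 64854 and 57929. The endothelial sum was lower in the male libraries, at 9022 and 9990 against 12023 and 12699, as was the melanocyte miR-211, at 64.9 and 67.5 against 126 and 115. Their part in the differences was not tested.

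The change from catagen to telogen was also compared between the sexes, in the 8 libraries of those phases. For miR-301a-3p it was 0.04 (SE 0.39) in females and 1.50 (SE 0.43, edgeR adjusted p = 0.0298) in males, with a difference between the sexes of 1.47 (SE 0.58, edgeR adjusted p = 0.184). The male counts behind it were 21 and 30 in telogen and 5 and 9 in catagen. miR-301a-3p passed the filter through the male March and the May libraries alone. Only the male March library of these is in this fit, so its being tested here was tied to its level in male telogen. miR-130b-5p was -0.90 (SE 0.25, edgeR adjusted p = 0.0261) in females and -0.06 in males, with a difference of 0.85 (SE 0.35, edgeR adjusted p = 0.204). The change of miR-130b-5p in females was under 2-fold and so was not called. Within each sex 12.7% of all tested miRNAs were called. Disregarding fold size, 22% had an edgeR adjusted p under 0.05 in females and 31% in males. The differences between the sexes did not pass the test for any member, and 1.33% of all tested miRNAs were called.

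Among miRNAs whose seed overlaps that of the family when shifted by a base, miR-148a-3p, miR-148b-3p, miR-19a and miR-19b-3p were tested. From May to September miR-148a-3p rose by 1.36 (SE 0.35, edgeR adjusted p = 0.0110) and miR-19a fell by 1.42 (SE 0.37, edgeR adjusted p = 0.0114), so 1 of 4 was called higher (9.67% of all tested miRNAs) and 1 lower (8.67%), with a median of -0.27 beside 0.07 over all tested miRNAs. After TMM scaling no other comparison of the 4 groups called any of them. With library totals 0 were called higher and 2 lower from May to September (3% and 23.7% of all tested on that scale). On that scale 1 was also called lower from May to catagen (24% of all tested) and 1 from telogen to September (12.7%). Of 28 miRNAs linked to TGF-beta signaling and growth, 26 were tested, and 2 were called higher and 1 lower from May to September, with a median of 0.06, beside the same 9.67% and 8.67% and a median of 0.07 over all tested miRNAs. The fallen one was miR-17-5p, a member of the miR-17-92 cluster that promotes proliferation (-1.11), and miR-200a (1.43) and miR-29b-3p (1.30) rose, the latter a repressor of collagen genes. In the other comparisons edgeR called 1 of the 26 from catagen to telogen (miR-146a, 1.04, beside 10.7% of all tested) and 2 from May to catagen (miR-29b-3p, 1.62, and miR-20b, -1.12, beside 16.7%). It called 1 from telogen to September (miR-141, -1.04, beside 9.33%), 1 from telogen to May (miR-29b-3p, -1.91, beside 2.33%) and none from September to catagen (0%). With library totals the counts of this list from May to September were 0 higher and 8 lower, with a median of -0.46 that was also the median of all tested miRNAs, of which 3% were called higher and 23.7% lower. On that scale they were 5 higher and 0 lower from catagen to telogen (14.3% and 1.67% of all tested), 1 higher and 7 lower from May to catagen (3.33% and 24%), 0 higher and 4 lower from telogen to September (1.33% and 12.7%), and 1 higher and 1 lower from telogen to May (0.667% each).

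By Pearson correlation of TMM-scaled log2 CPM over the 12 libraries, the miRNAs outside the family most like miR-301a-3p were miR-107-3p (r = 0.94), miR-18a-5p (0.93) and miR-20a-5p (0.91). Those most like miR-130a-3p were miR-24-3p (0.82), miR-141 and miR-135a (0.79 each), and those most like miR-130b-5p were miR-146b-3p (0.93), miR-423-3p and miR-345-3p (0.92 each). For miR-130b-3p they were miR-125a-5p (0.84, with a Spearman rho of 0.34), miR-17-5p (0.82) and miR-93-5p (0.81), for miR-130a-5p miR-26b-5p (0.90), miR-29b-3p (0.82) and miR-33a-3p (0.77), and for miR-454-3p novel_120 (0.86), miR-421-3p (0.84) and miR-200c (0.82). The shared-seed total was most like miR-190a-5p (0.91), miR-374a-5p (0.87) and miR-141 (0.85). Within the family, miR-130a-3p and miR-130b-5p ran opposite to each other (r = -0.78), and miR-301a-3p had r = 0.53 with miR-454-3p, which shares its host gene, and r = 0.58 with miR-130b-3p. The libraries share their month, scaling and cell mixture, and these values are a description of them.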

How the data were processed

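The 12 small RNA libraries were made by the authors from total RNA of SHFs and sequenced on an Illumina HiSeq platform. The submitters' processing notes name Bowtie 0.12.9, and reads were assigned by the authors to known and predicted goat miRNAs. The deposited counts are whole reads per miRNA, not normalized, and the deposited TPM values are those counts scaled to the library total.

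The counts were analysed with edgeR 4.0.16 (quasi-likelihood test, TMM scaling, R 4.3.3), keeping miRNAs with more than 5 CPM in at least 2 libraries (300 of 376), in 1 fit of 4 groups, with Benjamini-Hochberg adjustment within a comparison. Arm ratios (1 added to each arm) were tested with limma 3.58.1, and DESeq2 1.42.0 was an alternative. Groups came from the sample labels, which give no replicate numbers, and the fits were tested on simulated data. All names matching the family were described. The lists and likeness rules were likewise fixed by name, and of the families with a shifted seed only the guide arms were used. The members and lists were chosen with earlier results of these data known.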

Additional observations from a re-analysis of the deposited data

Results flagged for a closer look

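The male November library had a miR-454-3p TPM of 15.97, while the other 3 catagen libraries were at 25.2 to 25.3, so that its gap to them took up nearly the whole range of the group. Chance flags about 1 group in 20 by this criterion. It was the sole such gap among the members in the groups of 4 libraries, groups of 2 were not examined, and its cause was not tested.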

How the results depend on the processing

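Most results kept their direction and their side of the threshold. With library totals in place of TMM, 3 differences reversed: miR-130a-5p from May to September (-0.16), miR-130a-3p from May to catagen (-0.24) and miR-130b-3p from telogen to September (-0.28). The last was also reversed with DESeq2 size factors (-0.0406), with DESeq2 (-0.0407) and with the stricter filter (-0.0300), from 0.05. The number of members called was 0 with the stricter filter, which drops miR-301a-3p, from May to September, from May to catagen, from telogen to September and between neighbouring months. With library totals it was 2 from May to catagen (miR-130b-3p -1.13 beside miR-301a-3p) and 2 from telogen to September (miR-130a-3p -1.04 beside miR-301a-3p), where 27.3% and 14% of all tested miRNAs were called on that scale, and with no minimum fold 3 and 2. With only the groups compared it was 0 from telogen to September, and with DESeq2 it was 1 from telogen to May (miR-130a-5p, -1.02). The share of all tested miRNAs called is not given here for DESeq2 or for the fits that leave out a library. Calls in those fits therefore have no background beside them. With sex as a replicate block the arm ratios had 0 calls, and no other call changed. The shared-seed total in TMM-scaled CPM had means of 195, 165, 136 and 166. Leaving out each library in turn gave 0 to 1 members called from May to September, 0 to 2 from May to catagen, 0 to 1 from telogen to September, 0 to 1 from telogen to May, 0 to 1 from catagen to telogen and 0 to 2 arm ratios called. The log2 ratios to miR-130a-3p (telogen minus catagen) were -0.28 to -0.09 for miR-130b-3p, 0.19 to 0.69 for miR-301a-3p, -0.25 to 0.27 for miR-301b and -0.34 to 0.0150 for miR-454-3p. Differences near 0 changed sign when a library was left out: miR-130b-5p from May to September (-0.41 to 0.0558) and from September to catagen (-0.34 to 0.13), miR-130a-5p from catagen to telogen (-0.18 to 0.15), miR-454-3p from catagen to telogen (-0.0442 to 0.25), from telogen to September (-0.20 to 0.11) and from September to catagen (-0.15 to 0.0616), and miR-130b-3p from telogen to September (-0.0597 to 0.12). The causes were not tested. Low counts of the miR-301 members limit what these libraries can show.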
